A study of Chlorocebus sabaeus with 10 samples.

Results

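Mitochondria are remodelled by cycles of division and joining. Division (fission) is carried out by a dynamin GTPase that receptors recruit to the outer membrane, and joining (fusion) by mitofusins on the outer membrane and OPA1 on the inner membrane. Damaged organelles are tagged by the kinase PINK1 for removal by mitophagy, and new mitochondrial mass is built through transcriptional regulators that act on nuclear genes and on the mitochondrial genome. The liver is rich in mitochondria, which burn fatty acids and feed gluconeogenesis. Described here are 10 genes of this machinery: DNM1L, FIS1 and MFF for fission, MFN1, MFN2 and OPA1 for fusion, PINK1 for mitophagy, and PPARGC1A, NRF1 and TFAM for biogenesis. They were found by exact gene symbol in the transcript table of the liver RNA-Seq data. Of the 10 listed genes, 9 had a row among the 28078 rows of the table, each a single protein-coding transcript, and 8 had enough counts to be tested among 7948 transcripts. MFF had no row under that symbol and was not analysed here, and TFAM had too few counts to be tested.

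The livers came from female vervet monkeys (Chlorocebus sabaeus), an Old World primate. All animals ate chow before the experiment, after which 5 animals were fed a high fructose (HFr) diet and 5 stayed on chow for 6 weeks. Each animal gave 1 liver biopsy and 1 library of polyadenylated RNA, so the replicates of a diet are separate animals. The question for each gene was whether its transcript level in the liver differed between the HFr diet and chow.

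Each library held between 2977282 and 4992505 estimated counts, of which 864571 to 2657103 fell on nuclear transcripts. The remainder, 34.7% to 73.6% of the counts, lay on transcripts of the mitochondrial genome. This mitochondrial percentage averaged 55.5% ± 11.8 (SD, n = 5) in HFr livers and 55.4% ± 16.5 (SD, n = 5) in chow livers, a difference of 0.0714 percentage points (two-sided exact permutation test, p = 0.992). All 8 hepatocyte markers were tested and none passed an unadjusted p of 0.05 with edgeR, and their summed level was 45700 to 71500 normalized counts in HFr livers and 37800 to 79700 in chow livers. The summed markers of macrophages, endothelial cells, stellate cells and fibroblasts, cholangiocytes, lymphocytes, blood cells and skeletal muscle also overlapped between the diets. Some of these lists had few tested markers, with 2 of 5 for cholangiocytes, 1 of 5 for blood cells and 0 of 7 for skeletal muscle. The only single marker under the unadjusted threshold was ACTA2 of the stellate cell and fibroblast list, lower in HFr livers and described below. Among the skeletal muscle markers, CKM, MB and MYH2 were at 0 in every library. Because a biopsy is a mixture, fewer cells of a type and less RNA per cell cannot be told apart in these values.

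A normalized count is the estimated count as CPM after TMM scaling (trimmed mean of M values), where CPM are counts per 1000000 library counts. It is not divided by transcript length, so levels are compared between animals and not between genes. Differences were tested with edgeR's quasi-likelihood test, and the log2 fold change (log2FC) is HFr against chow, with its standard error (SE) and 95% confidence interval (CI).

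DNM1L differed between the diets at the unadjusted threshold, and the other 7 tested genes did not. DNM1L was lower in all 5 HFr livers than in any chow liver, at a fitted fold of 0.632 (95% CI 0.439 to 0.911). Of the 8 tested genes, 5 had a higher and 3 a lower fitted level in HFr livers, with a median log2FC of 0.09, beside 0 over all tested transcripts. Scaled by library size only, PINK1 changed sign. Only DNM1L had an unadjusted p under 0.05 in edgeR. Over all tested transcripts 4.29% had such a p, 2.23% with lower and 2.06% with higher levels in HFr livers. With 8 genes tested, a single gene sets this share. After Benjamini-Hochberg adjustment over all tested transcripts the count was 0 of the 8 genes and 0% of all transcripts, with adjusted p = 0.9996 for each of the 8 in edgeR. DESeq2 also gave 1 of the 8 an unadjusted and 0 an adjusted p under 0.05.

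**Figure D1:**
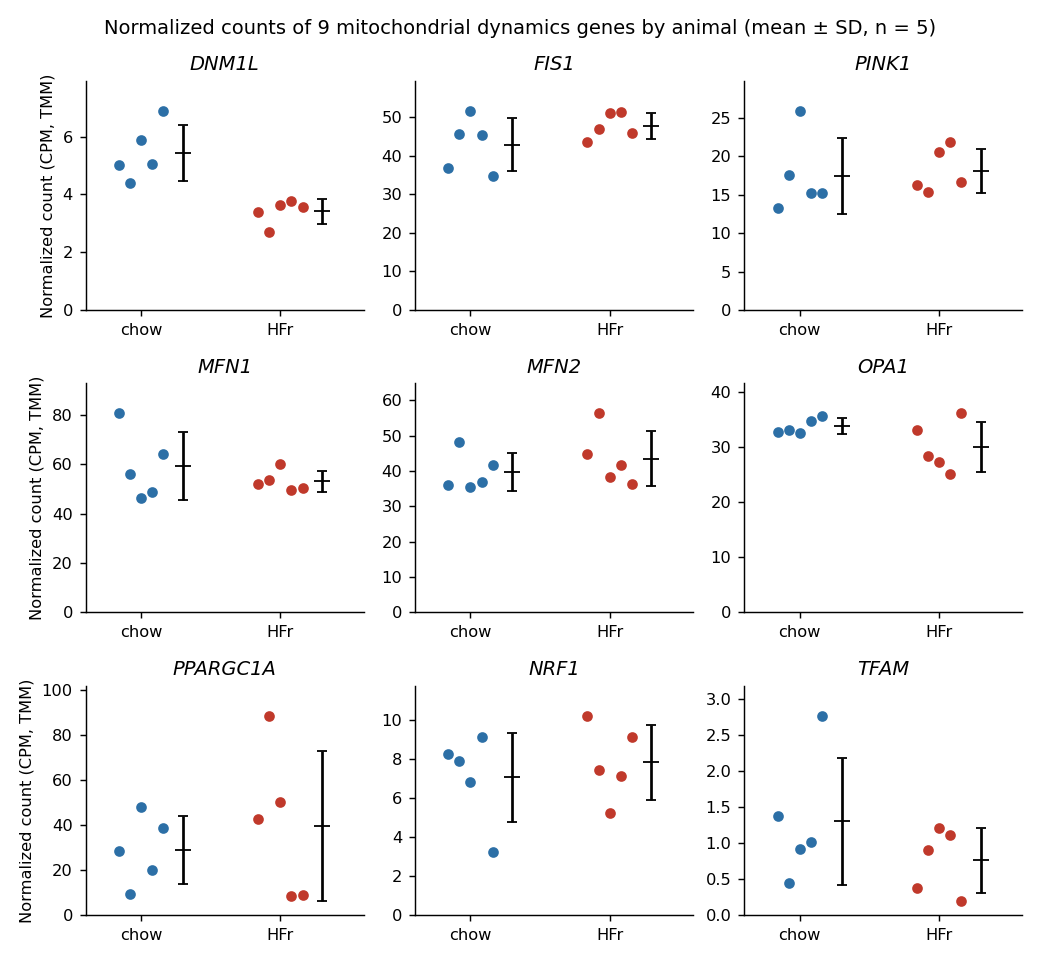
Normalized counts (CPM, TMM scaled, linear axes from 0) of the 9 genes with a row, by diet. Each point is 1 animal, placed from replicate 1 to replicate 5, and the bars give the mean ± SD of 5 animals. The DNM1L points of the diets do not overlap, and the points of every other gene do.

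The fission genes were DNM1L and FIS1. DNM1L encodes the dynamin GTPase DRP1, which assembles around the outer membrane and constricts it. The gene (ENSCSAG00000007392) lies on the plus strand of chromosome 11 from 32114675 to 32177662 in the vervet assembly ChlSab1.1, with coordinates as listed in the deposited table here and below. Its normalized counts in HFr replicates 1 to 5 were 3.39, 2.69, 3.63, 3.78 and 3.56. In chow replicates 1 to 5 they were 5.03, 4.38, 5.87, 5.05 and 6.89. The highest HFr liver was thus below the lowest chow liver. Means were 3.41 ± 0.425 (SD, n = 5) in HFr livers and 5.44 ± 0.967 (SD, n = 5) in chow livers. DNM1L fell by 0.66 on the log2 scale (SE 0.25, 95% CI -1.19 to -0.13, unadjusted p = 0.0176 and adjusted p = 0.9996 in edgeR). The two-sided exact permutation test on the log2 normalized counts (pseudocount 1) gave p = 0.00794. This is the smallest p that all assignments of 5 of the 10 animals to a diet allow. Any gene without overlap between the diets gets it, so it adds nothing to the separation already described. The other 7 tested genes had p from 0.143 (OPA1) to 0.905 (PPARGC1A) in this permutation test. Complete separation with all HFr livers lower occurred in 0.327% of all tested transcripts, and with all HFr livers higher in 0.214%. Random assignment of the diets gives complete separation in either direction with probability 0.00794, and these shares together were below that. The shares thus do not show more separated transcripts than chance gives.

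The DNM1L values rested on few counts. The estimated counts were 9, 12, 9, 17 and 18 in HFr replicates 1 to 5 and 22, 20, 32, 10 and 15 in the chow replicates, so that the unscaled counts of the diets overlapped. They summed to 65 in HFr and 99 in chow livers. With scaling to the library total alone, HFr livers spanned 2.76 to 4.23 CPM and chow livers 3.05 to 6.86, and the diets overlapped (log2FC -0.67, unadjusted p = 0.134 in edgeR). With scaling to the nuclear total alone, HFr livers spanned 6.66 to 9.01 and chow livers 9.89 to 16.1 CPM, without overlap. In the values normalized by the authors, HFr livers spanned 1.56 to 2.22 and chow livers 2.5 to 4.05, also without overlap.

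Over 22 other processing choices that could change its value, the log2FC of DNM1L stayed negative, between -0.74 and -0.45. The unadjusted p was under 0.05 in 19 of them and ranged from 0.0034 to 0.134, and no adjusted p was below 0.838. Both the log2FC of -0.45 and the p of 0.0034 came from the equal-variance test on the authors' values (log2, pseudocount 1). The threshold was missed with library size only, without HFr replicate 2 (log2FC -0.58, unadjusted p = 0.0514 in edgeR), and without chow replicates 4 and 5, the libraries under 1000000 nuclear counts (log2FC -0.58, unadjusted p = 0.0704 in edgeR). HFr replicate 2 held the lowest DNM1L value and chow replicate 5 the highest. Of the marker genes, ACTA2, a marker of activated stellate cells and smooth muscle, was also lower in HFr livers (log2FC -1.57, SE 0.49, unadjusted p = 0.00646 in edgeR, adjusted p = 0.9996). ACTA2 had normalized counts of 6.78, 6.73, 5.65, 1.33 and 5.54 in HFr replicates 1 to 5 and 10.3, 16.4, 3.85, 16.7 and 32.2 in the chow replicates. It was the only one of 5 tested stellate cell and fibroblast markers under the unadjusted threshold, and the sum of that list overlapped between the diets, at 198 to 381 and 162 to 780 normalized counts. Whether these markers had a part in the DNM1L difference was not tested.

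**Figure D2:**
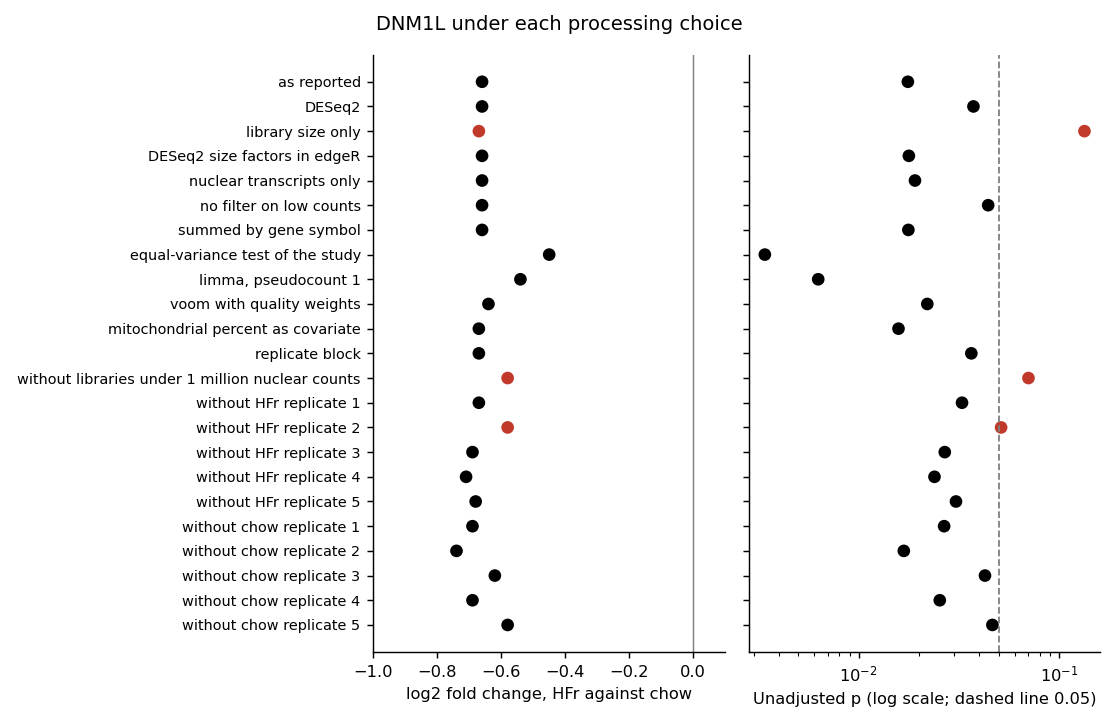
Log2 fold change of DNM1L (HFr against chow, left) and its unadjusted p (right, log axis, dashed line at 0.05) as reported and under each other processing choice that could give a different value. All fold changes lie between -0.74 and -0.45, and the 3 red points are the choices with a p above the line.

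FIS1 encodes a small tail-anchored protein of the outer membrane that takes part in the recruitment of fission factors. It lies on the plus strand of chromosome 28 from 11934821 to 11941902. Normalized counts were 43.7, 47.1, 51.2, 51.5 and 45.9 in HFr replicates 1 to 5 and 36.8, 45.8, 51.7, 45.5 and 34.9 in chow replicates 1 to 5. Every HFr liver lay above the chow mean, but the highest value belonged to a chow liver. The means of 47.9 ± 3.41 (SD, n = 5) and 42.9 ± 6.95 (SD, n = 5) did not differ beyond the spread between animals (log2FC 0.15, SE 0.16, 95% CI -0.18 to 0.49, unadjusted p = 0.344 in edgeR). FIS1 had 76 to 282 counts per library, and this interval excludes a fold above 1.41.

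The fusion genes MFN1, MFN2 and OPA1 varied little between livers, the highest being 1.75, 1.58 and 1.44 times the lowest. MFN1 and MFN2 encode the mitofusins, GTPases that tether and fuse outer membranes, and MFN2 also links mitochondria to the endoplasmic reticulum. MFN1, on the minus strand of chromosome 15 from 10047599 to 10093127, had 52, 53.6, 60.1, 49.5 and 50.6 normalized counts in the HFr livers and 80.7, 56.3, 46.2, 49 and 64.3 in the chow livers. Chow replicate 1 was the highest of all, and both the lowest and the highest livers were on chow. The means were 53.2 ± 4.16 (SD, n = 5) and 59.3 ± 13.9 (SD, n = 5), with a log2FC of -0.16 (SE 0.18, 95% CI -0.54 to 0.22, unadjusted p = 0.384 in edgeR).

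MFN2 lies on the minus strand of chromosome 20 from 119787370 to 119816694. Its normalized counts were 44.8, 56.3, 38.3, 41.8 and 36.4 in the HFr livers and 36.1, 48.2, 35.6, 36.9 and 41.8 in the chow livers. Replicate 2 held the highest value of each diet, and the ranges of the diets overlapped. The means were 43.5 ± 7.84 (SD, n = 5) and 39.7 ± 5.34 (SD, n = 5), with a log2FC of 0.13 (SE 0.17, 95% CI -0.23 to 0.50, unadjusted p = 0.447 in edgeR).

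OPA1 encodes the inner membrane GTPase that fuses inner membranes and keeps cristae closed. It lies on the plus strand of chromosome 15 from 87679077 to 87779103. In HFr livers it had 33.2, 28.5, 27.4, 25.1 and 36.2 normalized counts, and in chow livers 32.9, 33.1, 32.6, 34.9 and 35.8. The 5 chow livers lay close together, and 3 of the 5 HFr livers lay below all of them, while HFr replicate 5 was the highest of all. The means were 30.1 ± 4.51 (SD, n = 5) and 33.9 ± 1.41 (SD, n = 5), with a log2FC of -0.17 (SE 0.15, 95% CI -0.49 to 0.16, unadjusted p = 0.288 in edgeR).

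PINK1 encodes the kinase that accumulates on depolarized mitochondria and marks them for removal. It lies on the minus strand of chromosome 20 from 111902765 to 111919070. Normalized counts were 16.2, 15.3, 20.6, 21.8 and 16.6 in the HFr livers and 13.3, 17.5, 25.9, 15.2 and 15.2 in the chow livers, where replicate 3 stood highest. The means were 18.1 ± 2.89 (SD, n = 5) and 17.4 ± 4.97 (SD, n = 5), with a log2FC of 0.04 (SE 0.21, 95% CI -0.41 to 0.48, unadjusted p = 0.858 in edgeR). The sign of this small value was negative under 7 of 23 other processing choices, scaling by library size only among them.

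PPARGC1A encodes the coactivator PGC-1alpha, which switches on mitochondrial biogenesis and, in the fasted liver, gluconeogenesis. The gene lies on the plus strand of chromosome 27 from 26465499 to 26564583. It varied far more between animals than any other tested gene of the group. HFr replicates 1 to 5 had 42.6, 88.6, 50.4, 8.22 and 8.7 normalized counts, and chow replicates 1 to 5 had 28.6, 9.2, 48.2, 20.2 and 38.6. Low and high livers occurred on both diets, with HFr replicates 4 and 5 and chow replicate 2 below 10. The highest liver was 10.8 times the lowest, beside 1.44 times for OPA1 and 3.16 times for NRF1. Means were 39.7 ± 33.4 (SD, n = 5) in HFr livers and 29 ± 15.3 (SD, n = 5) in chow livers. The log2FC was 0.44 (SE 0.58, 95% CI -0.80 to 1.68, unadjusted p = 0.456 in edgeR), an interval that holds folds from 0.575 to 3.21. Without HFr replicate 2 the log2FC was -0.12, so the sign rested on that liver.

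NRF1 encodes nuclear respiratory factor 1, a transcription factor of respiratory chain genes and of TFAM, and lies on the plus strand of chromosome 21 from 98268395 to 98377097. Its normalized counts were 10.2, 7.4, 5.24, 7.11 and 9.1 in the HFr livers and 8.23, 7.88, 6.79, 9.1 and 3.22 in the chow livers. The lowest value, in chow replicate 5, rested on 7 counts. Means of 7.81 ± 1.9 (SD, n = 5) and 7.04 ± 2.29 (SD, n = 5) gave a log2FC of 0.14 (SE 0.27, 95% CI -0.45 to 0.73, unadjusted p = 0.618 in edgeR), which was -0.02 without that liver.

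TFAM encodes the factor that packages mitochondrial DNA and starts its transcription, and lies on the minus strand of chromosome 9 from 72904637 to 72914398. HFr replicates 1 to 5 had 1, 4, 3, 5 and 1 estimated counts and chow replicates 1 to 5 had 6, 2, 5, 2 and 6. The sums were 14 and 21. Tested without a filter on low counts, among 16066 transcripts, its log2FC was -0.68 with a 95% CI from -2 to 0.65 (SE 0.64, unadjusted p = 0.303 and adjusted p = 0.8747 in edgeR). A diet difference in TFAM of the size fitted for DNM1L was not detectable at this depth.

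How far animals of a diet differed was set against the spread that counting alone gives. The coefficient of variation (CV) of PPARGC1A was 84.2% in HFr and 52.7% in chow livers, where counting error alone gives 8.71% and 10.4%. edgeR's biological CV was 61.7% for PPARGC1A, above 98.7% of tested transcripts in dispersion. For DNM1L the observed CV of 12.5% in HFr and 17.8% in chow livers was below the 29% and 24.5% of counting error, and its biological CV of 16.8% lay at the 1.06 percentile of dispersion. On both diets the livers thus varied less in DNM1L than counting error alone gives. The same held for OPA1 in chow livers (4.17% against 9.78%). It also held in HFr livers for FIS1 (7.12% against 7.71%) and TFAM (59.2% against 62.3%). A CV of 5 animals is imprecise, and a value below counting error does not show a smaller true spread. The biological CV of the other 6 tested genes ranged from 17.9% for OPA1 to 23.4% for NRF1, below the common value of 29% over all transcripts.

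**Figure D3:**
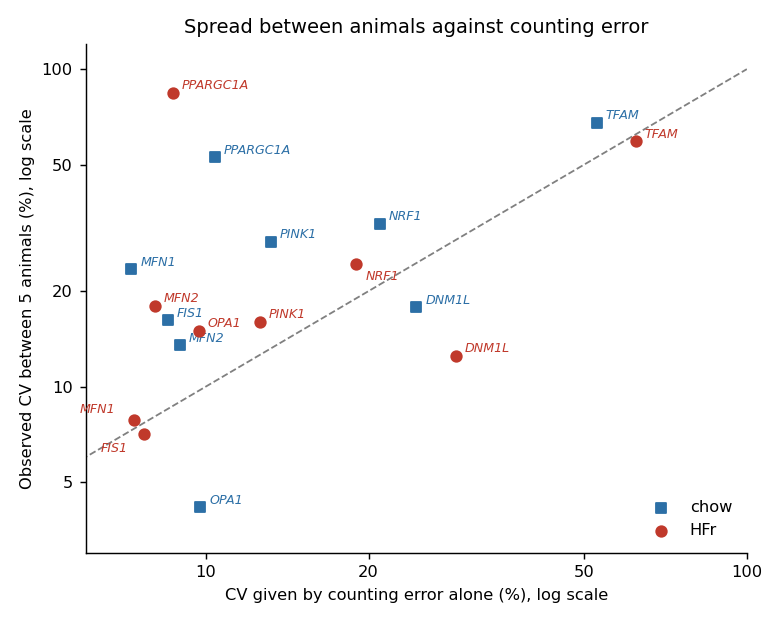
Observed coefficient of variation between the 5 animals of a diet (y axis, percent, log scale) against that given by counting error alone (x axis, percent, log scale) for the 9 genes with a row, with the line of equality dashed. PPARGC1A lies far above the line on both diets (84.2% and 52.7%) and DNM1L below it (12.5% and 17.8%).

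Across the 10 livers, the levels of the 8 tested genes were compared pair by pair on the log2 scale (pseudocount 1). Of 28 pairs, the Pearson r ranged from -0.73 to 0.77 with a median of -0.08. A permutation p under 0.05 was reached by 2 pairs, and none passed after adjustment over the 28. The highest r was that of FIS1 and PINK1 (r = 0.77, permutation p = 0.0111, adjusted p = 0.27, and rho = 0.84, permutation p = 0.0036, adjusted p = 0.101, n = 10). Within HFr livers the FIS1 and PINK1 r was 0.86, within chow livers 0.80, and without chow replicates 1 and 5, the livers farthest in FIS1, 0.86. The lowest was that of FIS1 and MFN1 (r = -0.73, permutation p = 0.0193, adjusted p = 0.27, and rho = -0.59, permutation p = 0.0802, n = 10). That relation rested on chow replicates 1 and 5, without which r was -0.07, and it was 0.33 within HFr livers and -0.86 within chow livers. The mitochondrial percentage of the library had r between -0.36 for MFN2 and 0.27 for DNM1L with the 8 genes, and no adjusted permutation p was below 0.819 over these 8 relations. Without HFr replicate 2 and chow replicate 2, the livers farthest in that percentage, r was 0.44 for MFN2 and 0.08 for DNM1L. For DNM1L it was 0.66 within HFr livers and 0.45 within chow livers, and for MFN2 -0.39 and -0.41.

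The named transcript with the most similar profile over the 10 livers was also sought among 7170 transcripts, and is given for 6 of the tested genes as a description. The closest to DNM1L was HS3ST3B1 (r = 0.90), to MFN1 ATM (0.92) and to MFN2 PPP3CC (0.85). OPA1 was closest to EFR3A (0.89), PPARGC1A to LAT2 (0.95) and NRF1 to PI4KB (0.95). The highest of 7170 coefficients over 10 livers is high by selection. These coefficients also pool the diets. HS3ST3B1, like DNM1L, had a lower mean in HFr livers (37.8) than in chow livers (58.9), and coefficients within a diet are not given for these pairs.

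The wider machinery was covered by 92 further genes in 6 lists. The lists were written from general knowledge, with earlier results of these data known. Of the 92 genes, 87 had a row and 58 were tested. Of these 58, 30 had a higher and 28 a lower fitted level in HFr livers, with a median log2FC of 0.02. An unadjusted p under 0.05 was reached by 2 genes in edgeR, ESRRA and MGME1, both higher in HFr livers, and none of the 58 was lower at that threshold. This is 3.45% of the 58, near the 4.29% of all tested transcripts, so the count does not set these genes apart. DESeq2 gave 3 of the 58 such a p. After adjustment the count in edgeR was 0. The 9 tested fission genes had a median log2FC of 0.05 (5 higher, 4 lower), and the 10 tested fusion genes, which include the proteases that cleave OPA1, had 0.01 (5 higher, 5 lower). The 15 tested mitophagy genes had a median of -0.02 (6 higher, 9 lower), and the 4 tested cristae genes had 0.02 (2 higher, 2 lower). In these 4 lists no gene had an unadjusted p under 0.05 in edgeR. Only 4 of the 15 other regulators of biogenesis were tested, with a median log2FC of -0.12 (1 higher, 3 lower). The 16 tested genes of mitochondrial DNA maintenance and transcription had a median of 0.07 (11 higher, 5 lower).

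**Figure D4:**
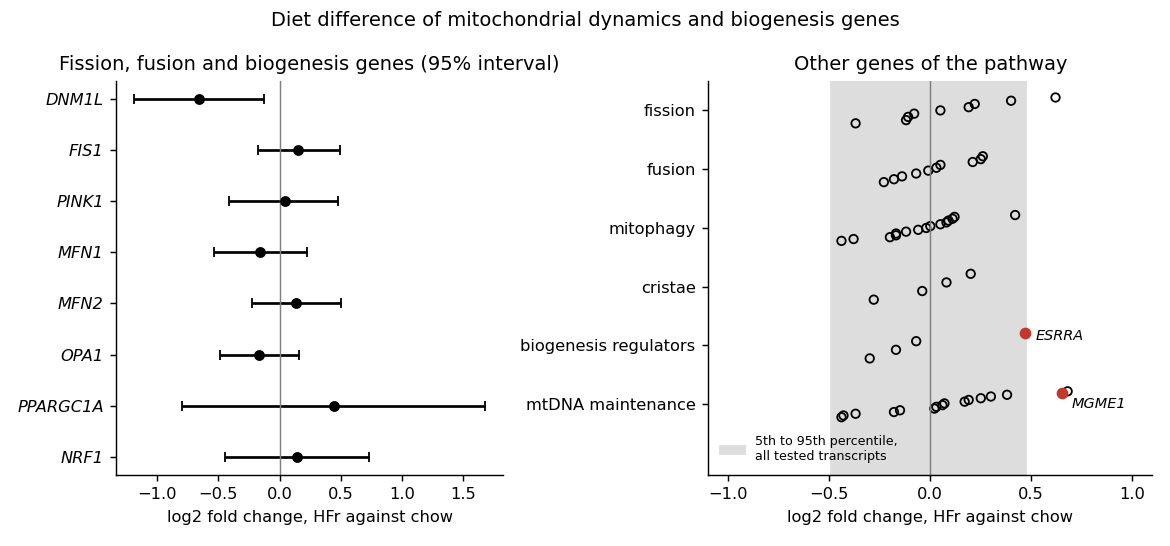
Log2 fold change (HFr against chow) of the 8 tested genes with 95% confidence intervals (left) and of 58 tested genes in 6 lists of related genes, 1 point each (right), where filled red points mark an unadjusted p under 0.05 and the grey band spans the 5th to 95th percentile of all tested transcripts (-0.49 to 0.47). The interval of DNM1L lies below 0 and the other 7 include 0, and ESRRA and MGME1 are the 2 red points.

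ESRRA encodes the estrogen-related receptor alpha, an orphan nuclear receptor that PGC-1alpha coactivates on genes of oxidative metabolism. The gene (ENSCSAG00000007192) lies on the minus strand of chromosome 1 from 9917436 to 9929451. Its normalized counts were 35, 45.3, 33.1, 42.7 and 39.2 in HFr replicates 1 to 5 and 29.2, 27.6, 32.1, 29.3 and 22.1 in chow replicates 1 to 5. With TMM scaling all 5 HFr livers lay above all chow livers, by a narrow gap between 33.1 and 32.1. Whether the diets stay separate under other scalings was not tested for ESRRA. Complete separation with all HFr livers higher occurred in 0.214% of all tested transcripts. Means were 39.1 ± 5.09 (SD, n = 5) and 28.1 ± 3.72 (SD, n = 5), with a log2FC of 0.47 (SE 0.16, 95% CI 0.13 to 0.82, unadjusted p = 0.0103 and adjusted p = 0.9996 in edgeR). Across 23 other processing choices the log2FC lay between 0.40 and 0.53 and the unadjusted p was under 0.05 in 21. The exceptions were scaling by library size only (unadjusted p = 0.198 in edgeR) and the fit without the libraries under 1000000 nuclear counts (log2FC 0.40, unadjusted p = 0.0515 in edgeR). ESRRA had 48 to 202 counts per library.

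MGME1 encodes a mitochondrial exonuclease that trims DNA ends during replication of the mitochondrial genome. The gene (ENSCSAG00000011551) lies on the plus strand of chromosome 2 from 47029329 to 47050949. It had 21.5, 23.1, 12.9, 9.55 and 16.2 normalized counts in the HFr livers and 9.37, 11.6, 7.52, 9.1 and 16.1 in the chow livers. The diets overlapped, since HFr replicate 4 lay below 2 of the chow livers. Means were 16.7 ± 5.69 (SD, n = 5) and 10.7 ± 3.33 (SD, n = 5), with a log2FC of 0.65 (SE 0.27, 95% CI 0.07 to 1.24, unadjusted p = 0.0309 and adjusted p = 0.9996 in edgeR). The unadjusted p was under 0.05 in 16 of 23 other processing choices. It was at or above 0.05 with library size only (log2FC 0.72) and with the equal-variance test (0.57). The same held without HFr replicate 1 (0.55), HFr replicate 2 (0.50), chow replicate 1 (0.61), chow replicate 3 (0.54) or chow replicate 4 (0.61).

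The 3 genes with the next smallest p-values did not pass, and are named after their values were seen. PRIMPOL, a primase and polymerase that restarts stalled replication, had 7.36 ± 1.38 (SD, n = 5) normalized counts in HFr and 4.63 ± 2.53 (SD, n = 5) in chow livers (log2FC 0.68, SE 0.32, unadjusted p = 0.0525 in edgeR). BNIP3, an outer membrane receptor of mitophagy, had 112 ± 25.5 (SD, n = 5) and 151 ± 35.7 (SD, n = 5) (log2FC -0.44, SE 0.22, unadjusted p = 0.0633 in edgeR). INF2, a formin that builds actin at fission sites, had 18.8 ± 11.1 (SD, n = 5) and 12.4 ± 2.46 (SD, n = 5) (log2FC 0.62, SE 0.32, unadjusted p = 0.0784 in edgeR), with HFr replicate 4 at 37.3 far above the others.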

How the data were processed

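Total RNA from liver biopsies of 10 animals was made into libraries with a stranded kit for polyadenylated RNA and sequenced as paired reads of 100 bases. The authors mapped the reads to the ChlSab1.1 assembly (STAR 2.5.3a is named in the submitters' processing notes), quantified the transcripts of Ensembl release 93 with the expectation-maximization algorithm of Partek Flow, and deposited the estimated counts without normalization. Whether counting used the strand is not given in the sources used here. Of the 9 genes, 3 (DNM1L, PINK1 and NRF1) overlap a small RNA row, which had 0 counts. Of all values, zeros included, 97.69% were exactly whole. The deposited normalized signal values, made by the authors with TMM scaling and holding 16105 rows, were used only for the equal-variance test of the study and for the ranges of DNM1L.

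Estimated counts were rounded, filtered with filterByExpr (minimum count 10, minimum total 15) and compared with edgeR 4.0.16 (quasi-likelihood, TMM, diet as the only term) in R 4.3.3, with limma 3.58.1 and DESeq2 1.42.0 as alternatives. Library sizes were summed over the transcripts kept. The SE was taken as the absolute log2FC over the root of F. Benjamini-Hochberg adjustment covered all 7948 transcripts. Single values were compared with exact permutation tests, and correlations with 100000 permutations. The counting CV follows from the square root of each count. The procedure was tested on simulated data.

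Depth was 2977282 to 4992505 counts per library, so a gene such as DNM1L rests on 9 to 32 counts per liver. No 2 libraries of a diet agreed within sampling noise (chi-square per degree of freedom 11.1 or more). The genes named are the 10 listed genes, any gene of the wider lists with an unadjusted p under 0.05 or without overlap between the diets, and the transcript closest in profile to each tested gene, which for FIS1 and PINK1 is not reported here. PRIMPOL, BNIP3, INF2 and the marker genes ACTA2, CKM, MB and MYH2 fall outside this rule and were named after their values were seen. The genes and lists were chosen with earlier results of these data known. Alternatives comprised DESeq2 itself, 3 further normalizations, 2 further filters, counts summed by gene symbol, the equal-variance test, limma with pseudocount 1, voom with quality weights, the mitochondrial percentage as a covariate, a replicate block, the transcript choice (each gene had 1 row), each animal left out, and, added after values were seen, the libraries under 1000000 nuclear counts left out. Proteins, metabolites and miRNAs were not analysed here.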

Additional observations from a re-analysis of the deposited data

How the results depend on the processing

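The count of fission, fusion and biogenesis genes at an unadjusted p under 0.05 in edgeR, 1 of 8, was 0 with library size only, 0 with at least 10 counts in every animal (6 genes tested, without DNM1L and NRF1), 0 without the libraries under 1000000 nuclear counts (chosen after seeing the data), and 0 to 1 with each animal left out (0 without HFr replicate 2). No alternative gave 1 of these genes an adjusted p under 0.05. The count over all transcripts, 341 as reported, was 123 with library size only and 756 of 16066 with no filter. For the wider lists it was 2 of 58 as reported, 0 with library size only, 6 of 82 with no filter, and 1 to 4 with each animal left out (1 without HFr replicate 1, HFr replicate 2 or chow replicate 3, 4 without HFr replicate 5). The log2FC of PINK1 was -0.02 with library size only, -0.07 without the libraries under 1000000 nuclear counts and -0.05 to 0.24 with each animal left out. That of PPARGC1A was -0.12 to 0.73 and that of NRF1 -0.02 to 0.23 with each animal left out. FIS1 (0.09 to 0.23) and MFN2 (0.02 to 0.22) stayed positive, and MFN1 (-0.24 to -0.02) and OPA1 (-0.25 to -0.11) negative, under all 23 alternatives that could change them, and no unadjusted p of these 4 was under 0.05. The difference in mitochondrial percentage ranged from -5.1 to 4.61 percentage points with each animal left out. The cause of these changes was not tested. Replicate numbers did not pair the livers (correlations of deviations -0.28 to 0.09, no liver closest to its own number), and with a replicate block DNM1L had a log2FC of -0.67 (unadjusted p = 0.0365 in edgeR), and the count stayed at 1. Depth limits DNM1L, NRF1 and TFAM most.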
